A study of Mus musculus with 14 samples.

Results

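The 2 inhibitor compounds labelled JAK3, IFN.6226 and IFN.6228, were set against one labelled JAK1/2, IFN.6221, and one labelled PAN, IFN.6222, in activated mouse T cells given interferon alpha. Names are those of the sample titles, where IFN is the interferon that all groups received and the digits are the code of a compound. The compounds were chosen by their target labels, which gave 4 arrays for the JAK3 compounds and 4 arrays for IFN.6221 and IFN.6222, of 14 arrays in all. The cells were CD4+ T cells taken by negative selection from spleens of C57BL/6 male mice aged 6 weeks. They had been stimulated for 48 h on beads carrying CD3 and CD28 antibodies, and every group then received interferon alpha at 100 U/ml together with 1 inhibitor at its IC80, for 2 h or for 8 h. Affymetrix Mouse Gene 1.0 ST arrays were used to measure RNA. They carry short probes for most annotated mouse genes. The groups were thus IFN.6226 and IFN.6228 at 2 h and at 8 h, against IFN.6221 and IFN.6222 at the same times, with 1 array for each compound and time. The compounds are known only by these codes, and the labels do not say how selective each one is at the dose used. Cells with no inhibitor, or with no interferon, were not analysed here, and every difference therefore lies between inhibitors.

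JAK kinases sit in pairs on the inner ends of cytokine receptors and phosphorylate STAT transcription factors when the cytokine binds. The type I interferon receptor uses JAK1 and TYK2, and a complex with STAT2 and IRF9 that they activate binds the interferon-stimulated response element in front of antiviral genes. The interleukin-2 receptor and others that share the common gamma chain use JAK1 and JAK3 and act largely through STAT5, which activated T cells need for growth and survival.

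The cell label was checked first. Markers of CD4 T cells were bright on all 8 arrays, with Cd3e, part of the CD3 signalling module, between 12.32 and 12.38 on the JAK3 arrays, against 12.31 to 12.50 on those of IFN.6221 and IFN.6222 (log2 intensity). Cd4 lay between 11.62 and 12.00, against 11.62 to 12.03. Markers of other cells ranged from dim to bright. S100a8 of granulocytes was at 4.13 to 4.32 on the JAK3 arrays, against 4.20 to 4.53, and Ncr1 of NK cells at 4.27 to 4.41, against 4.34 to 4.57. Of the CD8 T cell pair, Cd8a was at 6.65 to 6.89, against 6.60 to 6.97, and Cd8b1 at 8.75 to 9.26, against 8.80 to 9.29. Brighter still were Cd79b of B cells, at 9.34 to 9.80, against 9.43 to 9.84, Ctss of macrophages, at 9.23 to 9.70, against 8.86 to 9.58, and Cd74 of antigen-presenting cells, at 9.90 to 10.36, against 9.97 to 10.27. The 8 h array of IFN.6221 stood somewhat apart from the other arrays of its time, with the highest median intensity of the 14 (119.6 over all genes with a symbol) and a mean Pearson r of 0.988 with the arrays of its time, and results are also given without it. Outside these 8 arrays, the 8 h array of IFN.3404 (JAK1) lay further from the arrays of its time, at a mean Pearson r of 0.978. That of IFN.3885 (JAK2) was at 0.988. In RNA from many cells, fewer cells of a type cannot be told apart from less RNA per cell. As no culture was repeated, p-values measure the spread between compounds and arrays.

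At 2 h, antiviral genes induced by type I interferon were higher with the JAK3 compounds than with IFN.6221 and IFN.6222. Of 11851 genes tested with limma, 96 passed a Benjamini-Hochberg adjusted p of 0.05 (0.81% of the genes tested). Of these, 94 were higher with the JAK3 compounds (0.793%) and 2 were lower (0.0169%), and 21 of the 94 were at least 2-fold higher. Without IFN.6222 the count was 369, of which 246 were higher and 123 lower, and without IFN.6228 it was 53, all higher. The type I interferon list, of 72 genes, had 64 tested members, of which 49 rose, 0 fell and 15 did not pass. The median difference of the 64 was 0.69 on the log2 scale, against 0.01 over all genes tested.

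Promoters of 3 genes that rose are shown because they hold a match to the pattern used here for the interferon-stimulated response element. It was searched on either strand as GAAA, any 2 bases and GAAA (read from the other strand as TTTC, any 2 bases and TTTC). The 3 had the largest differences over both times among genes whose promoter held a match. Each run is the stretch of 250 bases before the annotated start, on the gene's strand, from RefSeq on GRCm38.p6, with the match in capitals. They lie at chr12:26456453-26456702 on the minus strand (Rsad2), chr19:34583279-34583528 on the plus strand (Ifit3) and chr11:82951852-82952101 on the plus strand (Slfn5).
Rsad2: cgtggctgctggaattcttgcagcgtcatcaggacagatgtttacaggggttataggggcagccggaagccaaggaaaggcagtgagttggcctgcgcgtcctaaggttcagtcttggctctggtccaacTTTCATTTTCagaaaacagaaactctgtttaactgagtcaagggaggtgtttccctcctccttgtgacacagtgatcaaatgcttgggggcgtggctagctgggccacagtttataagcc
Ifit3: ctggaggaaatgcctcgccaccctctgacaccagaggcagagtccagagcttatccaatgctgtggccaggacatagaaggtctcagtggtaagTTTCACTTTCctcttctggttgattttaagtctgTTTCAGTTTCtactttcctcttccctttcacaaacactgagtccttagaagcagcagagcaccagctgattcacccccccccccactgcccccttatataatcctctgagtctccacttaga
Slfn5: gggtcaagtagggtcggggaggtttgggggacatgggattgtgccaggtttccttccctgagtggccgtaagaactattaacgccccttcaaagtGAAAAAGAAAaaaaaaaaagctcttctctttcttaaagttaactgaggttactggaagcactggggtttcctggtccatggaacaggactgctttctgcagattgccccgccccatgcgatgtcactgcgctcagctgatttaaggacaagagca
The match began 120 bases before the start in Rsad2, 155 bases before it in Slfn5, and 156 and 122 bases before it in Ifit3. Of 94 genes higher at 2 h, 70 had a promoter in the RefSeq table, and 22 of these held a match (31.4%). Of 122 genes higher over both times, 86 had a promoter there, and 17 of these held a match (19.8%). Among all genes tested the share was 241 of 9497 (2.54%), and among all promoters in the table it was 821 of 27025 (3.04%). The match is a description of these letters and was not tested as a site.

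Rsad2 encodes viperin, an antiviral enzyme of the endoplasmic reticulum. Its log2 intensity at 2 h was 8.90 with IFN.6226 and 9.06 with IFN.6228, against 7.25 with IFN.6221 and 7.33 with IFN.6222. The groups did not overlap, as in 20.8% of all genes tested with the JAK3 compounds higher, and the difference was 1.69 (SE 0.11, 3.23-fold, n = 2 compounds each, limma adjusted p = 5.84e-07). Ifit3, a protein that works with other IFIT proteins that bind viral RNA, was at 8.91 and 9.04 with the JAK3 compounds, against 7.19 and 7.51, a difference of 1.62. Oasl2, of the oligoadenylate synthetase family, was at 8.92 and 8.87, against 7.30 and 7.56. The antiviral GTPase Mx1 was at 7.33 and 7.39, against 6.04 and 6.23, which again left a gap of more than 1 log2 unit between the groups. Slfn5, of the Schlafen family, differed by 1.38, Mx2 by 1.34, Ifit1 by 1.25, Cmpk2, a mitochondrial nucleotide kinase, by 1.20 and Parp12, an ADP-ribosyltransferase, by 1.18.

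Regulators of the pathway were higher too. Usp18, which removes the ubiquitin-like protein ISG15 and restrains the interferon receptor, was at 10.63 and 10.64 with the JAK3 compounds, against 9.14 and 9.32 with IFN.6221 and IFN.6222. Its difference of 1.40 (SE 0.07, limma adjusted p = 4.63e-08) had the smallest p of the genes tested at 2 h. Irf7, the factor that amplifies interferon production, was at 10.11 and 9.99, against 9.01 and 8.86. Stat2, a subunit of the interferon-activated complex, was at 10.07 and 10.26, against 9.17 and 9.23. Irf9, which binds DNA in that complex, was at 10.84 and 10.82, against 10.58 and 10.55, a difference of 0.27 whose limma adjusted p was 0.0396. Leaving out IFN.6226 or IFN.6228, quantile normalization, median centring, cyclic loess, no filter or no variance trend each ended the call for Irf9.

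The kinases and receptor chains were measured as well. In the list of JAK kinases, STATs and cytokine receptor chains, 1 of 27 members, Stat2, was higher at 2 h and 0 were lower, where 0.793% of all genes tested were higher and 0.0169% lower. Jak1 differed by 0.06, Jak2 by 0.09, Tyk2 by 0.00, Ifnar1 by 0.06 and Ifnar2 by -0.01, and none of these passed. Jak3, Isg15 and Il2rg had no probe set with 1 symbol and were not analysed here.

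A list of GTPases and antigen presentation genes that interferon gamma also induces had 22 tested members at 2 h, of which 8 rose and 0 fell, with a median of 0.26. Over all genes tested 0.793% rose, 0.0169% fell and the median was 0.01. Iigp1, an immunity-related GTPase that attacks the vacuoles of intracellular pathogens, was at 9.23 and 9.30 with the JAK3 compounds, against 7.97 and 8.27 with IFN.6221 and IFN.6222. Irgm1, a regulatory GTPase of the same family, was at 11.02 and 11.14, against 10.17 and 10.45. The guanylate-binding proteins Gbp4, Gbp7, Gbp8 and Gbp9 also rose, by 0.45 to 0.64. Tap1, which carries peptides into the endoplasmic reticulum for MHC class I, and Tapbp, which helps load them, differed by 0.30 and 0.25. The other 37 genes that rose stood on neither interferon list. They included Tnfsf10, the death ligand TRAIL, at 8.39 and 8.54 with the JAK3 compounds, against 7.92 and 7.92. Gm4951, at a difference of 1.09, and Ifi208, at 1.05, were the only genes off both lists among the 21 that reached 2-fold. The calls for Gbp4 and Tnfsf10 were lost without IFN.6228, and that for Tnfsf10 also without IFN.6226.

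Cish and Il2 were the 2 genes lower with the JAK3 compounds at 2 h. Cish, a STAT5 target that restrains cytokine signalling, was at 9.20 with IFN.6226 and 9.05 with IFN.6228, against 9.89 with IFN.6221 and 9.62 with IFN.6222. The difference was -0.63 (SE 0.10, limma adjusted p = 0.00410). Il2, the T cell growth factor interleukin-2, was at 9.28 and 9.27, against 9.88 and 9.69, a difference of -0.51 (SE 0.10, limma adjusted p = 0.0146). The groups did not overlap for either gene, as in 14.3% of all genes tested with the JAK3 compounds lower. The call for Cish was lost without IFN.6228, and that for Il2 without IFN.6226, IFN.6228 or IFN.6221. Under the inhibitors with other labels Cish lay at 8.98 (IFN.3404, JAK1), 10.61 (IFN.3885, JAK2) and 10.14 (IFN.2485, TYK2), so at 2 h the JAK3 compounds stood between JAK1 and the rest. At 8 h they were the lowest of the 7 inhibitors, at 7.71 and 7.82, with IFN.3404 at 8.10.

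**Figure D1:**
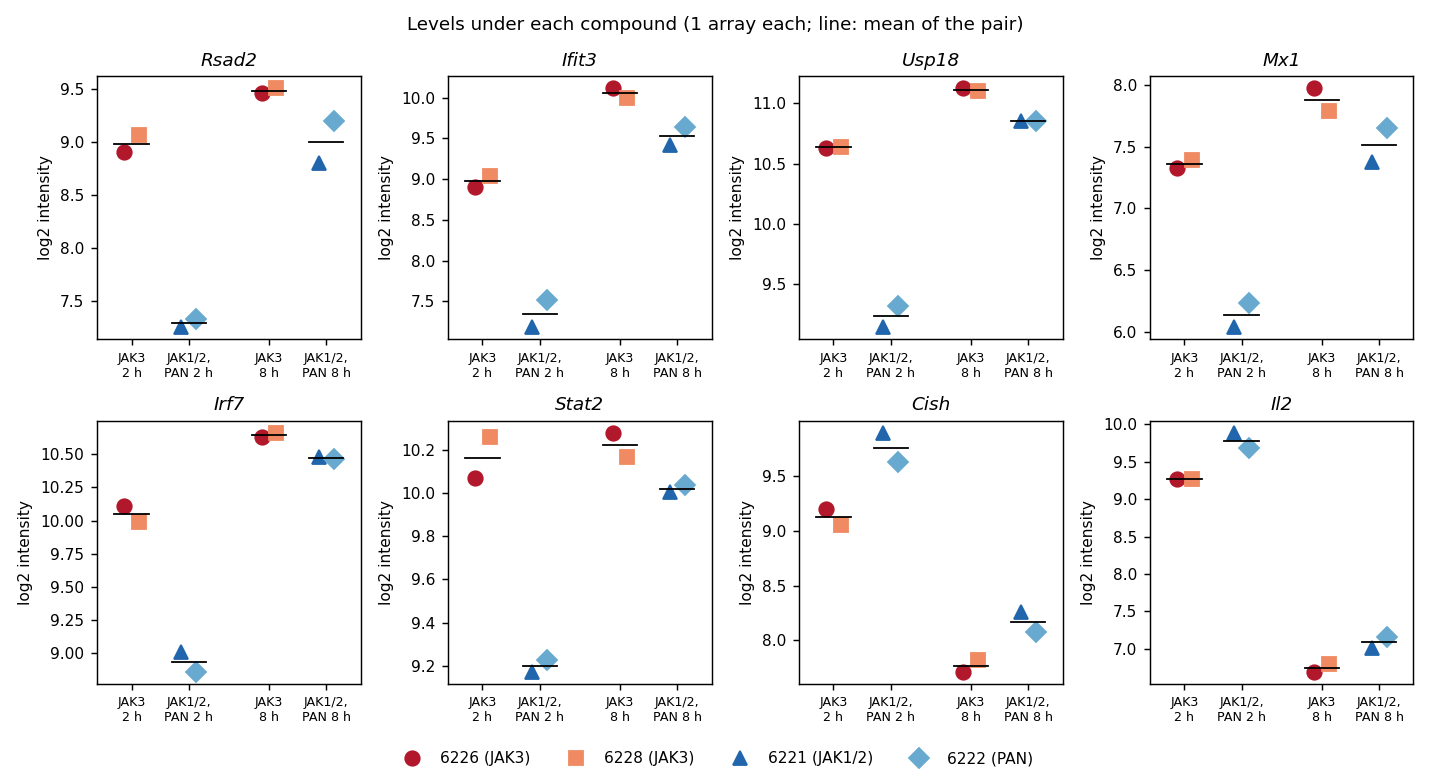
Log2 intensity of 8 genes under each compound at 2 h and 8 h, with the JAK3 compounds left of IFN.6221 and IFN.6222 at each time, 1 array per point and a line at the mean of each pair. The 6 interferon genes are separated widely at 2 h and narrowly at 8 h, while Cish and Il2 lie lower with the JAK3 compounds at both times.

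At 8 h the 2 groups lay closer together. Only 7 genes passed (0.0591% of the genes tested), 5 higher with the JAK3 compounds (0.0422%) and 2 lower (0.0169%), although 1974 had an unadjusted p under 0.05. None of the 64 type I interferon genes passed, while 60 of them had a positive difference and the list median was 0.14, against 0.01 over all genes. Rsad2 was at 9.45 and 9.50 with the JAK3 compounds, against 8.80 and 9.20 with IFN.6221 and IFN.6222, a difference of 0.48 with a limma adjusted p of 0.105. Usp18 was at 11.12 and 11.10, against 10.85 and 10.85, a difference of 0.26 (limma adjusted p = 0.124).

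The 7 genes that passed at 8 h were of mixed kinds. Igfbp4, a secreted protein that binds insulin-like growth factors, was at 9.34 and 9.20 with the JAK3 compounds, against 10.03 and 10.01, a difference of -0.75 (SE 0.07, limma adjusted p = 7.64e-04). Under the inhibitors with other labels it lay at 9.39 (IFN.3404, JAK1), 10.58 (IFN.3885, JAK2) and 9.45 (IFN.2485, TYK2). Olfr316, an olfactory receptor gene, was lower by 0.84 on the log2 scale. Ifi27l2a, an interferon-induced gene, was at 12.06 and 12.07, against 11.67 and 11.72, and was the only gene called at both 2 h and 8 h. Snord15a, a small nucleolar RNA, was higher by 0.96, Pfdn5, a subunit of the prefoldin chaperone, by 0.60, Pnp, an enzyme of purine salvage, by 0.57 and Rps29, a ribosomal protein, by 0.38. Without IFN.6226 or without IFN.6228 only 1 gene passed at 8 h, without the 8 h array of IFN.6221 there were 17, without both arrays of IFN.6221 there were 108, and without IFN.6222 there were 2570. Of the 7 calls 71.4% were higher, while after median centring 84.6% of the calls were higher and after cyclic loess 46.7%.

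**Figure D2:**
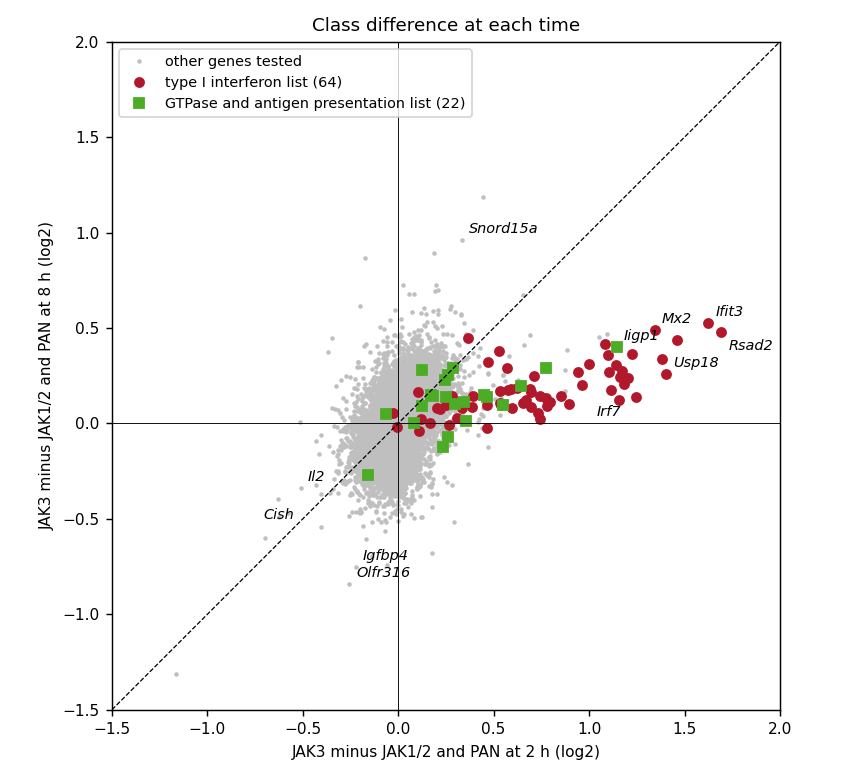
Difference between the JAK3 compounds and IFN.6221 with IFN.6222 at 2 h (horizontal axis) and at 8 h (vertical axis), on the log2 scale, 1 point per gene, with the dashed line where both are equal. Most of the 64 type I interferon genes lie to the right of the line, with a median of 0.69 at 2 h and 0.14 at 8 h.

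The change in the class difference between the times was tested directly. For 33 genes the difference at 8 h was lower than that at 2 h, and for 0 it was higher (0.278% and 0% of the genes tested). Of the 33, all of which were also called at 2 h, 29 were on the type I interferon list and Iigp1 was on the GTPase list. The remaining 3, named after their values were seen, were Gm12250, Ifi203 and Daxx. The change was -1.21 for Rsad2 (SE 0.16), -1.14 for Usp18 (SE 0.09), -1.11 for Ifit1, -1.10 for Ifit3 and -1.04 for Slfn5, and -0.94 for Irf7 and -0.76 for Stat2. With 1 difference of 8 h minus 2 h per compound, 9 of the 33 genes passed and no others. Irf7, Stat2 and Iigp1 lost the call there. The fit behind the 33 genes did not pair the arrays of a compound, and the counts that follow vary that fit. Without IFN.6226 the count was 7 and without IFN.6228 it was 5, all lower, and it was 54 without the 8 h array of IFN.6221, again all lower. Without IFN.6222 the count was 182, of which 93 were higher and 89 lower. Rsad2, Ifit3, Slfn5, Oasl2 and Iigp1 lost the call without IFN.6226 and also without IFN.6228, and with no variance trend Rsad2, Ifit3, Oasl2, Iigp1 and Stat2 lost it.

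The mean level of the type I list shows which arrays moved. It was 9.67 with IFN.6226 and 9.70 with IFN.6228 at 2 h, against 8.92 with IFN.6221 and 8.998 with IFN.6222. At 8 h it was 10.05 and 10.02, against 9.81 and 9.90. The 8 h level exceeded the 2 h level by 0.38 with IFN.6226 and 0.33 with IFN.6228, against 0.89 with IFN.6221 and 0.90 with IFN.6222. The list was thus higher at 8 h under all 4 compounds, with the larger step under IFN.6221 and IFN.6222. Beside the other inhibitors, the JAK3 compounds lay just under IFN.3885 (JAK2), at 9.74 and 10.12 for 2 h and 8 h, and above IFN.2485 (TYK2), at 8.94 and 9.68, and IFN.3404 (JAK1), at 8.36 and 8.80. These list means are descriptions with no test.

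With time in the fit, 136 genes passed (1.15% of the genes tested), 122 higher with the JAK3 compounds (1.03%) and 14 lower (0.118%). This fit counted the 2 arrays of a compound as separate arrays, although each class has only 2 compounds. With the mean of each compound over both times, 174 genes passed, 146 higher and 28 lower, and 111 of them were among the 136. In 135 of the 136 the groups did not overlap at either time, where 10.8% of all genes tested had no overlap with the JAK3 compounds higher and 4.81% with them lower. Of the 136 genes, 59 were among the 96 called at 2 h and 6 among the 7 called at 8 h. The type I list had 30 members higher and 0 lower, with a median of 0.42, and the GTPase list had 8 and 0, with a median of 0.20. Among genes that passed without overlap, the largest differences were those of Rsad2 (1.09), Ifit3 (1.07), Oasl2 (0.95), Mx2 (0.92), Slfn5 (0.86), Usp18 (0.83), Mx1 (0.79), Gm4951 (0.78), Iigp1 (0.77) and Ifi208 (0.75). With robust moderation 110 genes passed, and the calls for Rsad2, Ifit3, Oasl2, Slfn5, Usp18, Mx1, Iigp1 and Ifi208 were lost. The smallest p was that of Ifi27l2a, with a difference of 0.38 (SE 0.04, limma adjusted p = 0.00147), followed by Ifi35, an interferon-induced leucine zipper protein, with 0.45 (SE 0.05, limma adjusted p = 0.00170). Ifit1, whose difference shrank between the times, did not pass here (0.69, limma adjusted p = 0.0537).

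The count over both times depended on single compounds. It was 0 without IFN.6226 and 0 without IFN.6228, 61 without IFN.6221 and 825 without IFN.6222, and it was 194 without the 8 h array of IFN.6221. It was also 0 without a variance trend in the moderation. After quantile normalization Usp18, Irf7 and Stat2 were among the genes that lost the call. The share of calls that were higher was 89.7%, against 69.0% after quantile normalization and 65.6% after cyclic loess.

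Genes of the interleukin-2 and STAT5 pathway had more negative than positive differences over both times, but few passed. Of 41 members tested, 3 fell (Cish, Bcl2 and Ccr4), 0 rose, 25 had a negative difference, and the median was -0.05, against 0.01 over all genes. Over all genes tested, 0.118% fell, 1.03% rose, and 6389 of 11851 had a positive difference. Cish, lower at 2 h, was at 7.71 and 7.82 at 8 h, against 8.26 and 8.07, and its difference over both times was -0.51 (SE 0.08, limma adjusted p = 0.0133). Bcl2, which protects against apoptosis, was at 11.26 and 11.24 at 2 h, against 11.53 and 11.43, and at 10.56 and 10.53 at 8 h, against 10.74 and 10.72. Its difference was -0.21 (SE 0.04, limma adjusted p = 0.0186). Under the inhibitors with other labels Bcl2 lay at 11.17 (IFN.3404, JAK1), 11.71 (IFN.3885, JAK2) and 11.68 (IFN.2485, TYK2) at 2 h. At 8 h it lay at 10.48, 11.05 and 10.50, so the JAK3 compounds were not the lowest at either time. Ccr4, a chemokine receptor of Th2 and regulatory cells, differed by -0.21 (limma adjusted p = 0.0418). It was lower still with IFN.2485, at 11.57 at 2 h and 10.59 at 8 h, and higher with IFN.3404 and IFN.3885. The groups did not overlap at either time in these 3 genes, as in 135 of the 136 genes called. Of all genes tested, 4.81% had no overlap with the JAK3 compounds lower.

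Other members lay on both sides of 0, with 16 of the 41 positive. The most positive was Bcl6, a transcriptional repressor, with 0.25 (limma adjusted p = 0.0888). Il2rb, the signalling chain of the interleukin-2 receptor, differed by -0.13 (limma adjusted p = 0.0614) and Il2ra, its high-affinity chain, by -0.09 (limma adjusted p = 0.232). Of the feedback inhibitors, Socs3 differed by -0.29 (limma adjusted p = 0.0572), Socs2 by -0.16 and Socs1 by -0.10. In the list of 21 feedback inhibitors Usp18 rose, Cish fell and 19 did not pass. The kinase gene Pim1 differed by 0.00 and Myc by -0.06, Gzmb, a cytotoxic protease, by -0.05 and Ifng, interferon gamma, by -0.01, and none of them passed.

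Il2 fell as well, with a difference of -0.43 over both times (limma adjusted p = 0.0148), at 6.69 and 6.80 with the JAK3 compounds at 8 h, against 7.01 and 7.16. The remaining genes lower over both times were Olfr316 (-0.55), Igfbp4 (-0.49), Atn1 (-0.38), Epor, the erythropoietin receptor (-0.34), Pik3r5, a regulatory subunit of PI3 kinase gamma (-0.30), Tram2 (-0.28), Rtn4rl1 and Trp53i11 (-0.25 each), Rasgrp1, which activates Ras downstream of the T cell receptor (-0.20), and I730030J21Rik (-0.19). In the planned fit of all 14 arrays 0 genes passed, so all 32 named genes called lost the call, Cish, Il2 and Trp53i11 included. Without the 8 h array of IFN.3404, left out after seeing the data, 95 genes passed, and the calls for Bcl2, Ccr4, Igfbp4, Atn1, Epor, Pik3r5, Tram2, Rtn4rl1 and Olfr316 were lost.

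Other T cell programmes had few or no calls over both times. Of all 11851 genes tested, 1.03% rose, 0.118% fell and 6389 had a positive difference. Of 6 Th2 genes, all 6 had a negative difference and Ccr4 alone passed; Gata3, the Th2 master regulator, differed by -0.14 and Il4 by -0.25. No member passed among the lists of Th1 and cytotoxic genes, Th17 genes, follicular helper and regulatory genes, NR4A and EGR factors, NF-kB factors, quiescence genes, glycolysis, sterol synthesis, ATF4 targets, the 2 cell cycle lists or chaperones. Of 30 oxidative phosphorylation subunits 25 had a positive difference and 1, Cox4i1, rose by 0.23 (limma adjusted p = 0.0486). Hspe1, a mitochondrial chaperonin subunit on the MYC list, rose by 0.28.

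**Figure D3:**
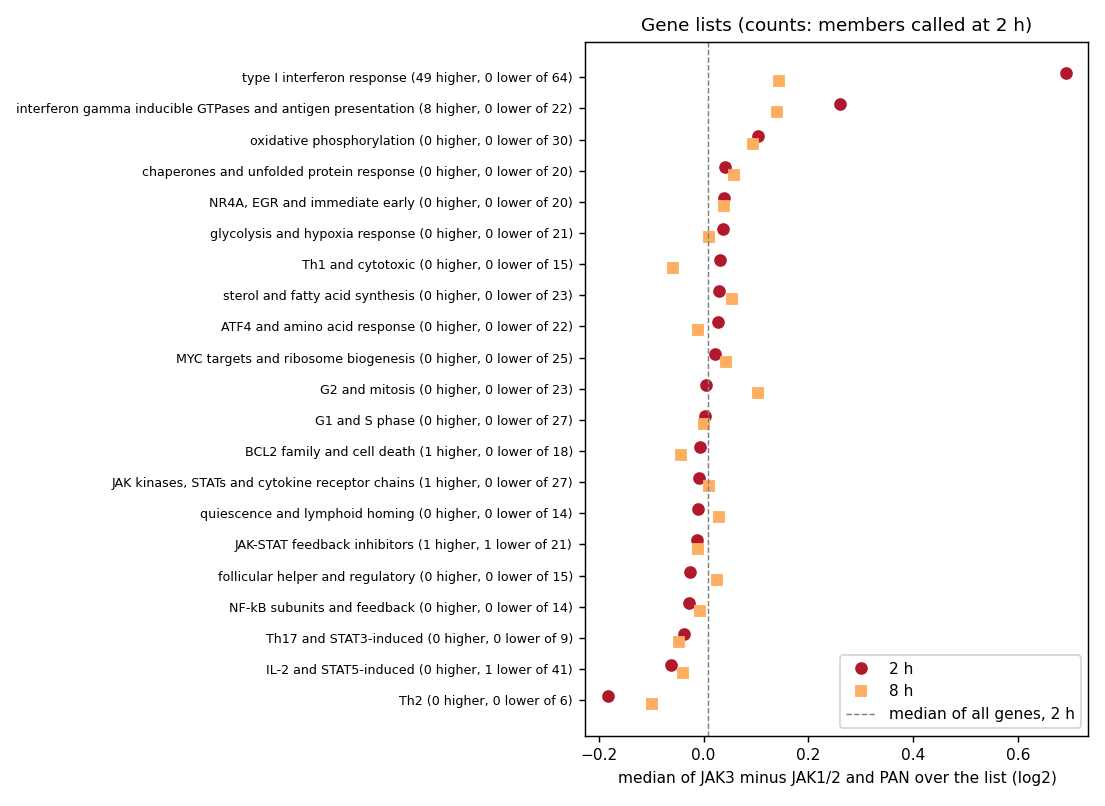
Median difference between the JAK3 compounds and IFN.6221 with IFN.6222 over each gene list at 2 h (circles) and 8 h (squares), on the log2 scale, with the number of members called at 2 h beside each name. The type I interferon list stands at 0.69 at 2 h and 0.14 at 8 h, and the lists other than the interferon pair lie between -0.18 (Th2) and 0.10 (oxidative phosphorylation) at 2 h.

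The 122 genes higher over both times also held 84 that were on neither interferon list, and 2 groups among them were recognised after the values were seen. Of 50 small nuclear, nucleolar and Cajal body RNAs tested, 6 rose, 39 had a positive difference, and the median was 0.13. Of all 11851 genes tested, 122 rose (1.03%), 6389 had a positive difference, and the median was 0.01. The median of the small RNAs at 8 h was 0.34 against IFN.6221 and 0.09 against IFN.6222. Of 58 ribosomal protein genes tested, 9 rose and the median was 0.09. In this second group the median at 2 h was 0.12 against IFN.6221 and 0.01 against IFN.6222, so the size of both groups' differences depended on the compound they were set against.

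Markers of other tissues differed between arrays. Over 12 skeletal muscle genes the mean level was 6.30 to 6.46 on the JAK3 arrays, against 6.95 and 7.01 on the arrays of IFN.6221 and 6.39 and 6.47 on those of IFN.6222. Over 4 platelet genes it was 7.27 to 7.86, against 6.90 to 7.51. Among the platelet genes Ppbp was at 7.78 to 9.42, against 6.84 to 8.35. Their part in the class differences was not tested.

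The 2 JAK3 compounds were then compared with each other. No gene passed in the fit of all 14 arrays (0% of the genes tested), and 42 had an unadjusted p under 0.05 by limma. The smallest adjusted p was 1.00, the median size of the difference was 0.05, and the 95% interval of a difference had a median half-width of 0.27. That width is a median over genes and is not adjusted for the number of tests. A gene with that half-width and a smaller difference would not have been separated from 0. Larger differences did not pass either, among them those of Macrod2 (0.64) and Myl1 (-1.01). In the 4 arrays of IFN.6226 and IFN.6228 alone 15 genes passed. Usp18 differed by 0.01 with an interval of 0.60 on either side, and Cish by 0.02 with 0.40 on either side. The spread in the fit of 14 arrays also holds how differently the other inhibitors changed between the times. These intervals, and the lack of calls, thus do not measure the agreement of IFN.6226 and IFN.6228 alone. Usp18 was at 10.63 with IFN.6226 and 10.64 with IFN.6228 at 2 h, and at 11.12 and 11.10 at 8 h.

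Across genes the arrays of the JAK3 compounds were close at both times. The SD over genes of the log2 difference between IFN.6226 and IFN.6228 was 0.132 at 2 h, which was rank 4 from the lowest among 21 pairs of inhibitors, and 0.110 at 8 h, the lowest of 21. Pearson r across genes was 0.997 at 2 h and 0.998 at 8 h, over genes that are not independent replicates. The lowest SD at 2 h, 0.125, belonged to IFN.6222 and IFN.6226, one compound from each group. At 8 h IFN.6222 also lay close to both JAK3 compounds, with an SD of 0.135 to IFN.6228 (rank 2) and 0.145 to IFN.6226 (rank 3). The pair IFN.6221 and IFN.6222 was rank 2 at 2 h and rank 11 at 8 h. The pair IFN.6221 and IFN.6222 had an SD of 0.130 at 2 h and 0.206 at 8 h, and 113 of its genes differed by at least 1.5-fold at 8 h, against 14 for IFN.6226 and IFN.6228.

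**Figure D4:**
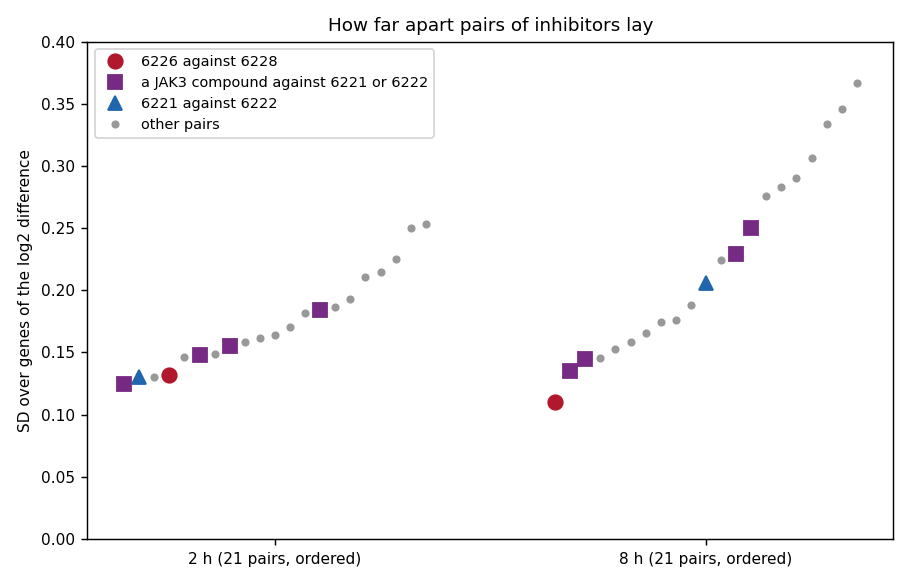
SD over genes of the log2 difference between the 2 arrays of each pair of inhibitors, with the 21 pairs of each time in rising order. The pair IFN.6226 and IFN.6228 is rank 4 at 2 h (0.132) and lowest at 8 h (0.110).

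The differences between IFN.6226 and IFN.6228 were also set side by side across the times, which share no array. Across genes the 2 h difference and the 8 h difference had a Pearson r of -0.06 and a Spearman rho of -0.06. The 2 genes that differed by at least 1.5-fold in the same direction at both times were Macrod2, at 8.27 with IFN.6226 and 7.64 with IFN.6228 at 2 h and 8.74 and 8.10 at 8 h, and Myl1, a muscle myosin light chain, at 5.55 and 6.79 and then 5.50 and 6.28. Neither passed. The genes with the smallest p were Syne2, Zdhhc14, Slc6a20a and Tmem230, with differences of -0.35, -0.37, 0.39 and -0.40, and Macrod2 with 0.64.

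Within the genes that separated the classes, the JAK3 compounds lay closer to each other than to IFN.6221 and IFN.6222. For the 96 genes called at 2 h the median size of the difference between IFN.6226 and IFN.6228, averaged over both times, was 0.03. The median class difference at 2 h was 0.64, and the averaged difference of the compounds was largest in Trim12c (0.19). In 0 of the 96 did this averaged difference exceed the class difference at 2 h. Differences of opposite sign at 2 h and 8 h cancel in the average, so the count does not compare the compounds at 2 h alone. A call requires a small spread within the classes, so these values describe the called genes and test nothing. At 2 h the median size was 0.06 between IFN.6226 and IFN.6228, and 0.13 between IFN.6221 and IFN.6222, over the same 96 genes. Over all genes tested these sizes were 0.0845 and 0.0812, so the JAK3 pair was not the closer one there. Over the type I list the median of the JAK3 compounds minus IFN.6221 at 2 h was 0.72 and minus IFN.6222 it was 0.64. At 8 h these medians were 0.19 and 0.10.

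**Figure D5:**
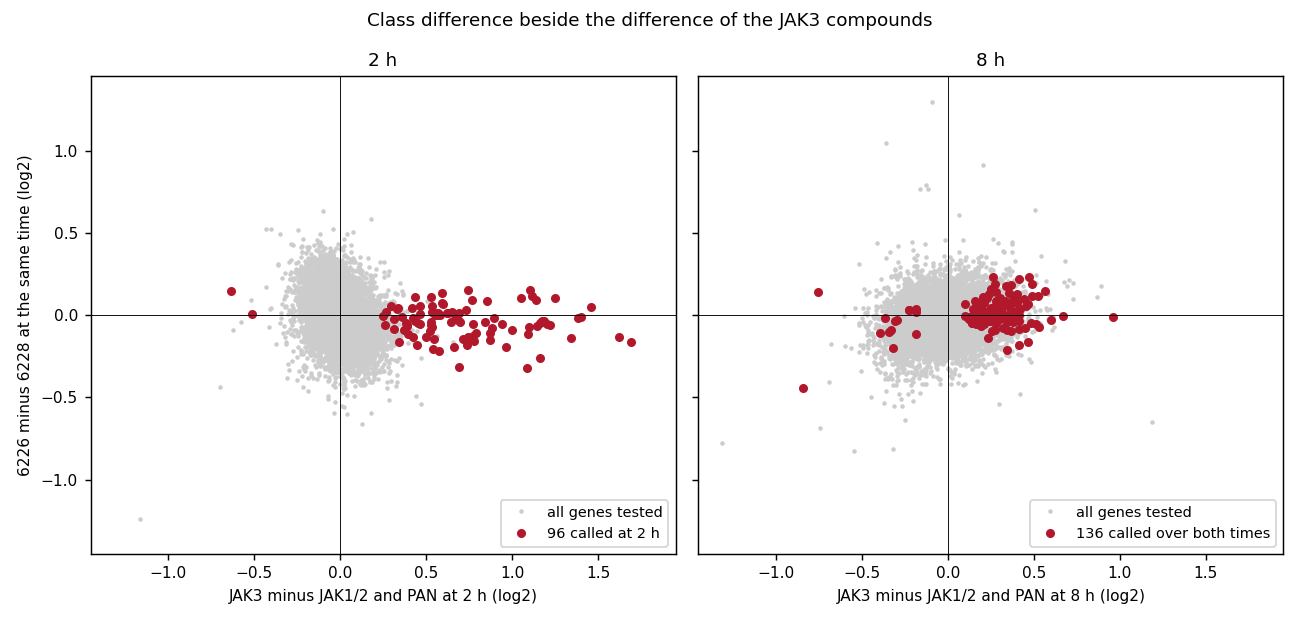
Difference between IFN.6226 and IFN.6228 (vertical axis) against the difference between the JAK3 compounds and IFN.6221 with IFN.6222 (horizontal axis) on the log2 scale, for all 11851 genes (grey) and for those called at 2 h or over both times (red). The called genes spread along the horizontal axis at 2 h and stay near 0 on the vertical one.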

How the data were processed

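Each array has 1 deposited intensity for every probe set. Affymetrix Power Tools and RMA are listed in the submitters' processing notes, with no version. Per the deposited values, all intensities were positive (4.78 to 22879, array medians 109 to 121), so they were taken to be linear, and log2 was applied here. How the background was corrected and which arrays were normalized jointly is not given in the sources used here. Of 24922 probe sets, 21425 with 1 symbol were used, the brightest per gene, and genes at or above the 40th percentile (6.27) were tested. Of these 21425 probe sets, 21347 had a gene identifier found in a table of RefSeq names (GRCm38.p6), which changed 0 symbols.

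Tests used limma 3.58.1 (statmod 1.5.0, R 4.3.3; lmFit, eBayes with trend=TRUE), with Benjamini-Hochberg adjustment over all genes tested. Class comparisons used 8 arrays, additive in class and time over both times (5 residual degrees of freedom) or with class by time means (4). The comparison of IFN.6226 with IFN.6228 used all 14 arrays with inhibitor and time (6), whose residual holds the interaction of both. Tables and plots used Python 3.11.15, numpy 2.4.6, pandas 2.3.3 and matplotlib 3.10.9. The steps were tested on simulated data.

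Genes are named if they are the 10 most changed either way among passing genes without overlap (5 at 8 h, for class by time and for IFN.6226 against IFN.6228, or the 5 with the smallest p where under 3 pass), if they are among the up to 4 members of a list with the highest absolute moderated t, or if they belong to a set of JAK-STAT and interferon genes kept for all comparisons. Other genes named, among them those that complete a count, were chosen after their values were seen. The members, lists and comparisons were chosen with earlier results of these data known. The number of arrays limits the precision, and dim genes were left out. Alternatives changed the scaling, filter, probe set rule, moderation, log offset, threshold, unit of replication and arrays used.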

Additional observations from a re-analysis of the deposited data

Results flagged for a closer look

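The difference between the JAK3 compounds and IFN.6221 with IFN.6222 was not the same at both times for 33 genes, by limma's test of the difference itself (0.278% of the genes tested). All 33 had a lower difference at 8 h than at 2 h. That test did not pair the arrays of a compound, and with 1 difference per compound 9 of the 33 passed. The named genes with the largest changes were Rsad2 (-1.21), Usp18 (-1.14), Ifit1 (-1.11), Ifit3 (-1.10) and Slfn5 (-1.04), on the log2 scale. Rsad2, Ifit3 and Slfn5 lost the call without IFN.6226 and also without IFN.6228. For each of these 5 the 4 compounds had higher levels at 8 h than at 2 h.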

How the results depend on the processing

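The 136 genes called over both times became 84 after quantile normalization, 0 with no variance trend, 24 at a fold change of at least 1.5, 259 with the compound as a random block and 0 in all 14 arrays, and 0 to 825 when 1 compound was left out (0 without IFN.6226 or IFN.6228). At 2 h the 96 became 54 at a fold change of at least 1.5 and 171 in the 4 arrays of 2 h alone, and 53 to 369 without 1 compound. At 8 h the 7 became 11 after quantile normalization, 13 after median centring or with the mean of probe sets, 15 after cyclic loess, 0 with no variance trend and 4 at the higher fold change, and 1 to 2570 without 1 compound. The 33 genes of class by time became 20 when arrays were centred on the median, 9 without a variance trend or with 1 difference per compound, and 5 to 182 without 1 compound. For IFN.6226 against IFN.6228 the 0 became 15 in the 4 arrays of those compounds alone. Without the 8 h array of IFN.6221, chosen after seeing the data, the counts were 194 over both times, 17 at 8 h and 54 for class by time. In 14 arrays but the 8 h array of IFN.3404, also chosen afterwards, 95 genes passed over both times, 77 of them among the 136. No named gene changed direction while called. All 32 named genes called over both times lost the call under some alternative, as did 5 of 22 at 2 h, 7 of 7 at 8 h and 7 of 11 for class by time. A class left with 1 compound was assumed to vary like the others. Stricter folds call fewer genes by construction, and otherwise the cause was not tested. The median of the interleukin-2 and STAT5 list at 8 h was -0.04, and 0.02 after median centring. No paired analysis was possible because every array has the replicate number 1, which links no samples across groups; pairing the arrays of a compound across the times gave the 9 and the 259.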
